A study of Homo sapiens with 9 samples.

Results

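Neuropilins, their plexin partners and the ligands that bind them were followed in MDA-MB-453 cells, a human breast cancer line that GEO's labels call triple-negative and that carries no engineered change (genotype WT). The genes are the neuropilins *NRP1* and *NRP2*, the ligands *VEGFA*, *VEGFB* and *VEGFC*, the plexins *PLXNA1*, *PLXNA2* and *PLXNB1*, and the class 3 semaphorins *SEMA3C* and *SEMA3F*, 10 of the 59452 genes in the count table, taken by symbol. Bulk RNA-seq covered 3 attached libraries given the vehicle DMSO, 3 suspended libraries given the same vehicle, and 3 suspended libraries given 10 µM AT-0174, a dual inhibitor of the tryptophan-degrading enzymes TDO2 and IDO1. Suspension was forced on plates coated with poly-HEMA, to which cells cannot attach, all cells grew in medium with serum, and all were collected at 48 hours as biological triplicates of this single line. Attached cells with AT-0174 are not among the libraries, so culture and inhibitor cannot be told apart when the suspended AT-0174 cells are set against the attached ones. The list was drawn up with the fall of *NRP1* in suspension and the place of *VEGFA* in a ranked gene list already seen, so values of these genes in suspended against attached cells are given as descriptions, and nothing is read from the count of calls among them.

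Neuropilins are transmembrane coreceptors with short cytoplasmic tails that signal through partners. With A-type plexins they form the receptor for class 3 semaphorins, secreted guidance cues, and with VEGF receptors they bind VEGF ligands, which drive the growth of blood and lymphatic vessels. Carcinoma cells can themselves carry neuropilins and plexins, and PLXNB1, a receptor of semaphorin 4D, acts on small GTPases and on cell movement.

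The libraries held between 36649997 and 48019126 estimated counts, so that 3 counts, the most that a count of 0 allows, came to 0.0625 to 0.0819 CPM (counts divided by library size and scaled) as counting error alone. The 7 epithelial and luminal markers summed to between 3670 and 4280 CPM in every library, with the attached libraries at 3670 to 3810. The 7 endothelial markers summed to 1.62 to 2.93 CPM, *LYVE1* was at 0 in all libraries, and *ESAM* held most of that sum. The 5 fibroblast markers summed to 108 to 149 CPM, nearly all of it *COL1A1*, with *DCN* and *LUM* at 0 throughout, and the 4 leukocyte markers summed to at most 0.166 CPM. The fibroblast sum was 131 to 149 CPM in attached libraries and 112 to 114 CPM in suspended vehicle libraries, and its part in the results was not tested.

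*PLXNB1* and *SEMA3C* each had reads assigned to transcripts annotated from 2 start sites with different upstream sequence, which is why these sequences are shown. Reads at the starts themselves were not examined, so use of either start was not measured. RefSeq windows for GRCh38.p14 were found for 8 of the 10 genes, 12 windows in all, and no entry was found for *NRP1* and *VEGFA*. The printed stretches run 5′ to 3′ on the gene's strand. The outer ones end just before a RefSeq start site. The inner ones were shortened to bases outside every annotated exon of the gene, so they end further upstream and lack the bases next to the RefSeq starts at position 48429344 (*PLXNB1*) and 80919051 (*SEMA3C*). Capitals mark GGGCGG, the GC box, and GGAATG, the core bound by TEAD factors, on either strand.
PLXNB1 outer start, chr3:48430087-48430336, minus strand: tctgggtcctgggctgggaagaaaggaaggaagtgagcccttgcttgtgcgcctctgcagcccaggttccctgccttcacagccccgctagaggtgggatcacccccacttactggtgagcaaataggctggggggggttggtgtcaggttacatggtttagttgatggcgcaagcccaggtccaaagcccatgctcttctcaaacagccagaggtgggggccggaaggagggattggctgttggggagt
PLXNB1 inner start, chr3:48429482-48429594, minus strand: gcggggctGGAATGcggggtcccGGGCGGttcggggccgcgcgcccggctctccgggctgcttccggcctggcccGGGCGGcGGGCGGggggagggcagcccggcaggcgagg
SEMA3C outer start, chr7:80922390-80922639, minus strand: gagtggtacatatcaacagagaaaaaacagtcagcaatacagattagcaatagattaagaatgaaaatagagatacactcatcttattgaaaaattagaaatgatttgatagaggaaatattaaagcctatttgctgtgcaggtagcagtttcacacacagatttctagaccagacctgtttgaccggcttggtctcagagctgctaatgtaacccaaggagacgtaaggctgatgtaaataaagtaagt
SEMA3C inner start, chr7:80919184-80919301, minus strand: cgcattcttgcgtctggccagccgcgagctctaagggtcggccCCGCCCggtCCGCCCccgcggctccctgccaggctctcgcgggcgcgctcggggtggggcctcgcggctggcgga

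In both genes the outer stretch held no GC box and the inner one held several. The GC content was 59.6% and 85.0% for the outer and inner stretch of *PLXNB1*, and 36.4% and 78.8% for those of *SEMA3C*. Over the 250 bases upstream of each RefSeq start, GGGCGG was found in 9 of the 12 windows of these genes, against 42.6% of 35116 windows of the same length. Those 9 windows had a GC content of 70.0% to 84.4%, against a median of 58.0% over all windows. The part of base composition in the GC box count was not tested, and some genes gave more than 1 window. GGAATG was found in 2 of the 12, against 11.9% of all windows. None of the 12 held ACGTG, the core of the hypoxia response element (18.5% of all windows), TNGCGTG, the element bound by AHR (4.52%), or TGANTCA, the AP-1 site (6.57%). All 5 motifs were searched on both strands, and a match or its absence describes only these letters in this window.

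The level per unit length, in TPM (a transcript's share of all transcripts, corrected for its length and scaled), ordered the genes over a wide range. In attached cells *SEMA3F* was highest at 86.5 ± 1.73 TPM (mean ± SD, n = 3), followed by *PLXNB1* at 64.3 ± 5.01, *SEMA3C* at 54.1 ± 1.54, *VEGFA* at 47.2 ± 1.90, *VEGFB* at 37.4 ± 0.82 and *PLXNA1* at 17.8 ± 0.40. *VEGFC* at 6.30 ± 0.52 and *NRP1* at 5.55 ± 1.14 overlapped in their library values and were neighbours that did not differ beyond their spread. *PLXNA2* stood at 1.104 ± 0.29 TPM and *NRP2* at 0.086 ± 0.113. These sums include transcripts that are not of the protein-coding type. Protein-coding transcripts alone had means of 84.4 TPM for *SEMA3F*, 38.3 for *SEMA3C* and 34.9 for *VEGFA* in attached cells. For *VEGFB*, *PLXNB1* and *PLXNA1* these means were 19.7, 18.5 and 16.6 TPM, so the order depends on the transcripts counted. In suspended vehicle cells *SEMA3C* (54.7 to 57.4 TPM) lay above *PLXNB1* (37.5 to 45.8), which overlapped with *VEGFA* (42.4 to 45.5) and *VEGFB* (37.7 to 40.7), and *NRP1* (0.431 to 0.701) lay below *PLXNA2* (1.04 to 1.39). The semaphorins that bind neuropilins were thus among the most abundant genes of the list in every group, and the neuropilins among the least.

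**Figure D1:**
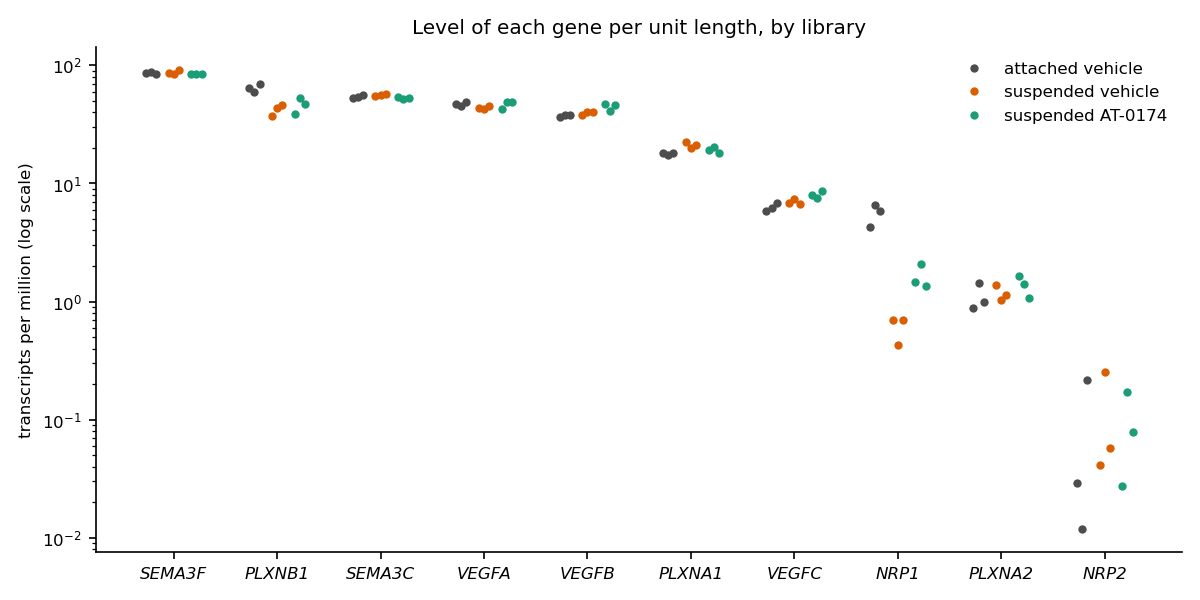
Level of each of the 10 genes in TPM (log scale), 1 point per library, ordered by the mean in attached cells and coloured by group. *NRP1* lay at 4.29 to 6.52 TPM in attached libraries and at 0.431 to 0.701 in suspended vehicle libraries, whereas *SEMA3F* lay between 84.1 and 91.4 TPM in all 9.

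*NRP1*, the coreceptor shared by class 3 semaphorins and VEGF ligands (ENSG00000099250, chr10:33177492-33336262, minus strand, GRCh38), had 471, 417 and 404 counts in attached replicates 1, 2 and 3, and values below keep that order. It had 65, 53 and 70 counts in suspended vehicle cells and 111, 80 and 89 in suspended AT-0174 cells. Scaled for library size these were 12.3, 11.5 and 10.4 CPM attached, 1.68, 1.20 and 1.59 CPM in suspended vehicle cells, and 2.30, 1.91 and 2.02 CPM with AT-0174. Each group was separate from the others, with attached cells highest and suspended vehicle cells lowest.

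From attached to suspended vehicle cells the log2 fold change of *NRP1* was -2.94 (SE 0.134), a ratio of 0.131. It had rank 12 among the falls of 15528 tested genes, and rank 4 among the 12526 genes whose mean reached 50 normalized counts. In bulk RNA, fewer cells that express the gene and less RNA per cell cannot be told apart. Of the 7 endothelial markers, *LYVE1* had 0 counts, *CDH5*, *PECAM1*, *TEK* and *VWF* at most 13, and *ESAM* 50 to 79 in any library. Mean *ESAM* was 1.68 CPM attached, 1.39 CPM in suspended vehicle cells and 1.59 CPM with AT-0174. *PROX1*, a transcription factor of lymphatic endothelium, had 14 to 25 counts attached, 10 to 15 in suspended vehicle cells and 10 to 13 with AT-0174. Like *NRP1* it was lower in suspension, but unlike *NRP1* its mean was not higher with AT-0174 (0.26 CPM) than with vehicle (0.293 CPM). Its log2 fold change was -0.94 (SE 0.325, adjusted p = 0.0578 by edgeR) in suspended against attached vehicle cells and -1.10 (SE 0.328, adjusted p = 0.0281 by edgeR) for AT-0174 against attached cells. The part of endothelial RNA in the *NRP1* values was not tested.

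*NRP2* (ENSG00000118257, chr2:205681990-205798133, plus strand), the neuropilin best known in lymphatic vessels as a partner of VEGFC and as a receptor for SEMA3F, was near the limit of detection. It had 5, 2 and 15 counts in attached cells, 1, 5 and 6 in suspended vehicle cells, and 2, 5 and 1 with AT-0174. It did not pass the filter on low counts, the groups overlapped, and no difference was detectable at this depth. *NRP1* was therefore the neuropilin measured in these cells, at 5.55 ± 1.14 TPM attached against 0.086 ± 0.113 TPM of *NRP2*.

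The transcripts of *NRP1* could not be resolved. All 14 of its quantified transcripts are of the protein-coding type, and the one with the largest mean share of TPM, NRP1-204, codes for 644 residues against 923 for NRP1-201, which carries the membrane anchor. NRP1-204 took 16.7%, 18.3% and 18.4% of the gene's TPM in attached cells, but 58.3%, 37.3% and 0% in suspended vehicle cells and 38.3%, 23.4% and 38.7% with AT-0174. NRP1-209, a fragment of 497 bases, took 0%, 47.9% and 44.1% in attached cells from at most 27.3 reads. Its short length gives few reads a large TPM, so counts are used for *NRP1* below.

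The VEGF ligands kept their level in suspension much more closely. *VEGFA*, the main angiogenic ligand (ENSG00000112715, chr6:43770184-43786487, plus strand), had 77.6, 74.8 and 86.6 CPM in attached cells, 71.8, 69.5 and 74.2 in suspended vehicle cells, and 69.0, 80.3 and 76.4 with AT-0174. Its vehicle groups did not overlap, although the highest suspended library lay just under the lowest attached one, and the AT-0174 libraries spanned both. The log2 fold change from attached to suspended vehicle cells was -0.15 (SE 0.0615).

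*VEGFB* (ENSG00000173511, chr11:64234584-64239264, plus strand), a ligand of VEGF receptor 1 linked to heart muscle and fatty acid uptake, had 28.9, 30.4 and 30.6 CPM attached and 29.6, 29.9 and 30.8 CPM in suspended vehicle cells. With AT-0174 it had 34.3, 32.96 and 35.8 CPM, above all 6 vehicle libraries. *VEGFC* (ENSG00000150630, chr4:176683538-176792922, minus strand), the lymphangiogenic ligand of VEGF receptor 3, had 8.71, 9.44 and 10.5 CPM attached and 9.82, 10.4 and 9.42 CPM in suspended vehicle cells. It had 11.4, 11.3 and 12.3 CPM with AT-0174, again above all 6 vehicle libraries. From attached to suspended vehicle cells their log2 fold changes were 0.01 (SE 0.0450) and 0.05 (SE 0.0795).

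Of the plexins, *PLXNB1* (ENSG00000164050, chr3:48403854-48430086, minus strand) was lower in suspension. It had 125, 123 and 146 CPM in attached cells, 93.1, 98.6 and 107 in suspended vehicle cells and 93.9, 114 and 102 with AT-0174. All suspended libraries of both treatments lay below the attached ones. The log2 fold change from attached to suspended vehicle cells was -0.40 (SE 0.0772), a ratio of 0.758. On counts rebuilt from TPM it was -0.70.

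*PLXNA1* (ENSG00000114554, chr3:126982693-127037389, plus strand), a signalling partner of NRP1 for class 3 semaphorins, had 109 to 115 CPM attached, 114 to 123 CPM in suspended vehicle cells and 112 to 117 CPM with AT-0174, and the groups overlapped. *PLXNA2* (ENSG00000076356, chr1:208022242-208244384, minus strand), a close relative, had 6.80 to 8.05, 7.57 to 8.26 and 7.59 to 8.03 CPM, also with overlap. *SEMA3C* (ENSG00000075223, chr7:80742538-80922359, minus strand), a ligand for both neuropilins, had 86.3 to 89.5, 82.5 to 86.8 and 81.2 to 84.4 CPM, with the vehicle groups overlapping and the AT-0174 libraries below all attached ones. *SEMA3F* (ENSG00000001617, chr3:50155045-50189075, plus strand), a ligand that prefers NRP2, had 163 to 165, 154 to 163 and 155 to 157 CPM. Its vehicle groups also overlapped, and its AT-0174 libraries likewise lay below all attached ones. The log2 fold changes of these 4 genes from attached to suspended vehicle cells lay between -0.04 and 0.11.

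**Figure D2:**
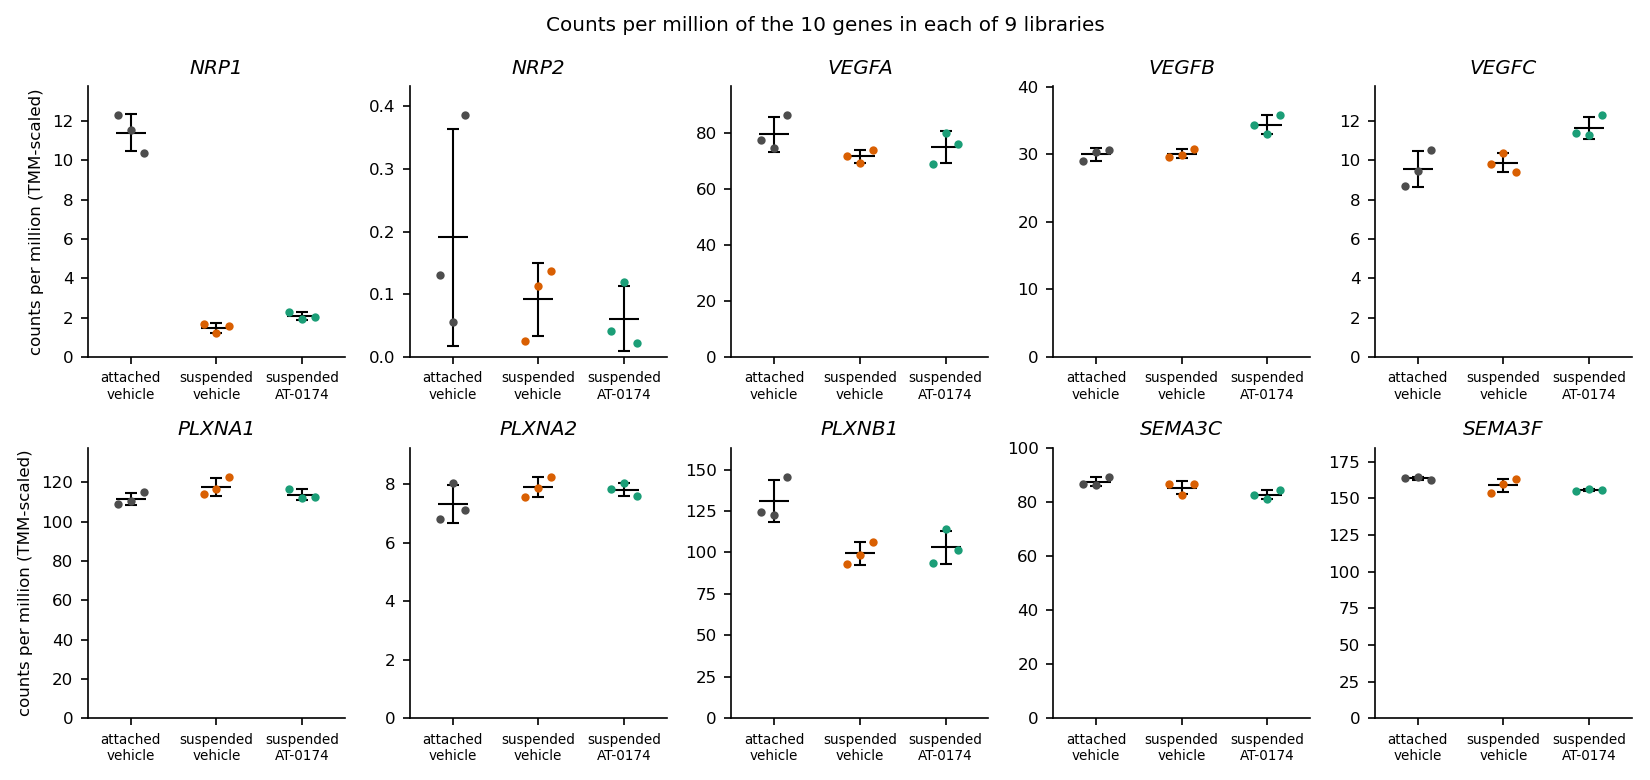
CPM of each of the 10 genes in each library (points), with the group mean and SD as a horizontal mark and bars, on axes that start at 0. *NRP1* and *PLXNB1* lay lower in all suspended libraries than in all attached ones, and *VEGFB* and *VEGFC* lay highest with AT-0174.

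Across the 9 genes that passed the filter, 2 were past an adjusted p of 0.05 in suspended against attached vehicle cells, *NRP1* and *PLXNB1*, both lower, beside 21.2% of all 15528 genes tested in either direction (edgeR's quasi-likelihood test with Benjamini-Hochberg adjustment). 3 of the 9 had all suspended vehicle libraries below all attached ones, beside 18.7% of all genes tested. Because the list was chosen on this comparison, nothing is read from these counts. The median log2 fold change was -0.04 over the 9 genes and 0.00 over all genes tested. In the plot of log2 fold changes, *NRP1* stands far from the other 8.

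AT-0174 against vehicle in suspended cells asked whether the inhibitor moved these genes in detached cells, and no gene of the list was past the threshold. The comparison shares its vehicle libraries with the one above, so their values are not independent. *NRP1*, *VEGFB* and *VEGFC* had all 3 AT-0174 libraries above all 3 vehicle libraries, 3 of 9 genes against 7.75% of all genes tested. The other 6 genes overlapped between the groups, and the median log2 fold change of the 9 was 0.05, against 0.00 over all genes.

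For *NRP1* the log2 fold change with AT-0174 was 0.48 (SE 0.147), a ratio of 1.40, with an adjusted p of 0.241 by edgeR's quasi-likelihood test (unadjusted p = 0.00631). On counts rebuilt from TPM it was 1.46, and the short fragment NRP1-209, absent in the suspended vehicle libraries and at 30.6% to 66.0% of the gene's TPM with AT-0174, moves with that value. For *VEGFB* it was 0.19 (SE 0.0441), a ratio of 1.14, with an adjusted p of 0.085 by the same edgeR test (unadjusted p = 0.000925). For *VEGFC* it was 0.24 (SE 0.0774), a ratio of 1.18, with an adjusted p of 0.281 by the same edgeR test (unadjusted p = 0.00901). None of the 3 passed the correction over all genes.

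These 3 genes were the ones with an unadjusted p under 0.05 in the edgeR test, against 4.56% of all genes with such a p and a higher value. Past the adjusted threshold were 0 of 9 genes, and 0.779% of all genes, by edgeR. DESeq2 and limma-voom also called 0 of the 9. With no filter on low counts 1 was called, *VEGFB*, at an adjusted p of 0.0217 by edgeR. The remaining log2 fold changes were 0.07 (SE 0.0613) for *VEGFA*, 0.05 (SE 0.0773) for *PLXNB1*, -0.02 (SE 0.0801) for *PLXNA2*, -0.03 (SE 0.0298) for *SEMA3F*, -0.04 (SE 0.0341) for *SEMA3C* and -0.05 (SE 0.0370) for *PLXNA1*.

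**Figure D3:**
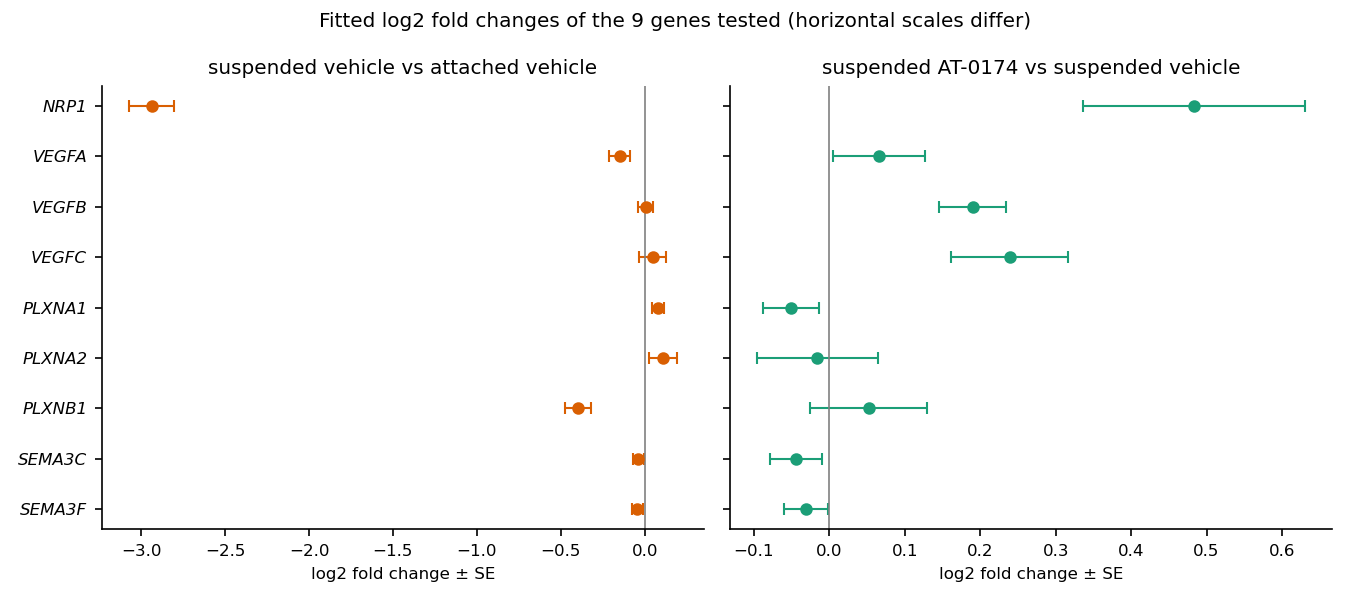
Fitted log2 fold change (points) and SE (bars) of the 9 genes that passed the filter, with suspended against attached vehicle cells on the left and AT-0174 against vehicle in suspended cells on the right, on different horizontal scales. *NRP1* lies at -2.94 on the left and at 0.48 on the right, and all other values lie between -0.40 and 0.24.

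Set against attached vehicle cells, the suspended AT-0174 cells had a log2 fold change of -2.46 (SE 0.128) for *NRP1* and -0.35 (SE 0.0769) for *PLXNB1*. With AT-0174 *NRP1* therefore stayed at 0.182 of its attached level, beside 0.131 with vehicle. *VEGFB* had 0.20 (SE 0.0445) and *VEGFC* 0.29 (SE 0.0783), and both were above all attached libraries. *VEGFA*, *SEMA3C* and *SEMA3F* had -0.08, -0.08 and -0.07, and *PLXNA1* and *PLXNA2* had 0.03 and 0.09.

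Both the protein-coding and the retained-intron transcripts of *PLXNB1*, the latter coding for no protein, were lower in suspension when their reads were scaled as CPM. The 3 protein-coding transcripts had 89.1, 91.2 and 106 CPM attached, 75.1, 77.8 and 84.7 CPM in suspended vehicle cells and 75.96, 85.3 and 80.8 CPM with AT-0174. The 11 retained-intron transcripts had 30.5, 28.3 and 32.1 CPM attached, 14.2, 17.5 and 18.4 CPM in suspended vehicle cells and 14.3, 22.9 and 18.7 CPM with AT-0174. In both classes all suspended libraries lay below all attached ones. The coding class had a mean of 95.4 CPM attached and 79.2 CPM in suspended vehicle cells, and the retained-intron class 30.3 and 16.7 CPM.

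In TPM, which gives short transcripts more weight per read, the same classes looked different. The retained-intron transcripts summed to 41.6, 33.8 and 39.8 TPM in attached cells, 17.9, 23.9 and 24.3 TPM in suspended vehicle cells, and 17.9, 30.7 and 26.8 TPM with AT-0174. The protein-coding transcripts summed to 17.5, 17.8 and 20.1 TPM, then 15.5, 16.6 and 18.0 TPM, and 15.8, 17.0 and 16.5 TPM with AT-0174. On this scale the coding values of attached and suspended vehicle cells overlapped.

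Retained-intron transcripts made up 59.7% ± 4.49 of *PLXNB1* TPM in attached cells and 51.7% ± 3.54 in suspended vehicle cells (SD, n = 3 each). Over all genes, retained-intron transcripts took 7.10% to 7.64% of TPM in attached libraries, 6.80% to 6.91% in suspended vehicle libraries and 6.51% to 7.06% with AT-0174, so the whole class was also lower in suspension, and its part in the *PLXNB1* values was not tested. On counts of protein-coding transcripts alone, an analysis chosen after these values were seen, the log2 fold change of *PLXNB1* in suspension was -0.30, beside -0.40 for the whole gene. Reads from introns of unspliced RNA and of retained-intron transcripts cannot be told apart here.

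Coding *PLXNB1* transcripts were set apart by their annotated start, outer or inner. PLXNB1-201, which begins at the outer start (position 48430086), had 10.6, 10.4 and 12.7 TPM in attached cells, 10.8, 11.5 and 12.2 TPM in suspended vehicle cells and 10.2, 13.2 and 9.99 TPM with AT-0174. PLXNB1-202, which begins near the inner start (position 48429463), had 6.92, 7.40 and 7.46 TPM attached, 4.69, 4.81 and 5.78 TPM in suspended vehicle cells and 5.35, 3.78 and 6.53 TPM with AT-0174. The outer-start transcript overlapped across all groups, and the inner-start transcript was lower in every suspended library than in every attached one.

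PLXNB1-201 held 60.6% ± 2.25 of the sum of both transcripts in attached cells, 69.4% ± 1.36 in suspended vehicle cells and 68.0% ± 8.91 with AT-0174 (SD, n = 3 each). Both transcripts code for 2135 residues, so reads from their common bases cannot separate them, and the split rests on how Salmon divided those reads. As a share of all *PLXNB1* TPM, PLXNB1-201 was 9.78 percentage points higher in suspended than in attached vehicle cells. With 3 against 3 libraries an exact permutation test cannot give a p below 0.1, so shares of leading transcripts are given as descriptions.

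For *SEMA3C*, the balance between the transcripts annotated from the outer and the inner start overlapped across the groups. SEMA3C-203, from the outer start (position 80922359), had 27.5 ± 1.33 TPM attached, 27.5 ± 1.70 in suspended vehicle cells and 25.6 ± 0.82 with AT-0174. SEMA3C-201, from the inner start (position 80919051), had 10.9 ± 0.78, 12.1 ± 0.56 and 11.5 ± 1.18 TPM. SEMA3C-201 held 28.3% ± 2.45, 30.6% ± 2.00 and 30.9% ± 2.86 of the sum of both. In TPM the outer-start transcript was thus the more abundant in every group. Their estimated reads were closer, at 1609 to 1840 for SEMA3C-203 and 1272 to 1524 for SEMA3C-201 in attached cells. In both suspended groups the reads of the transcripts overlapped. The transcripts also differ at their 3′ ends, and both code for 751 residues. Their split therefore rests on how Salmon divided common reads and need not reflect which start was used.

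**Figure D4:**
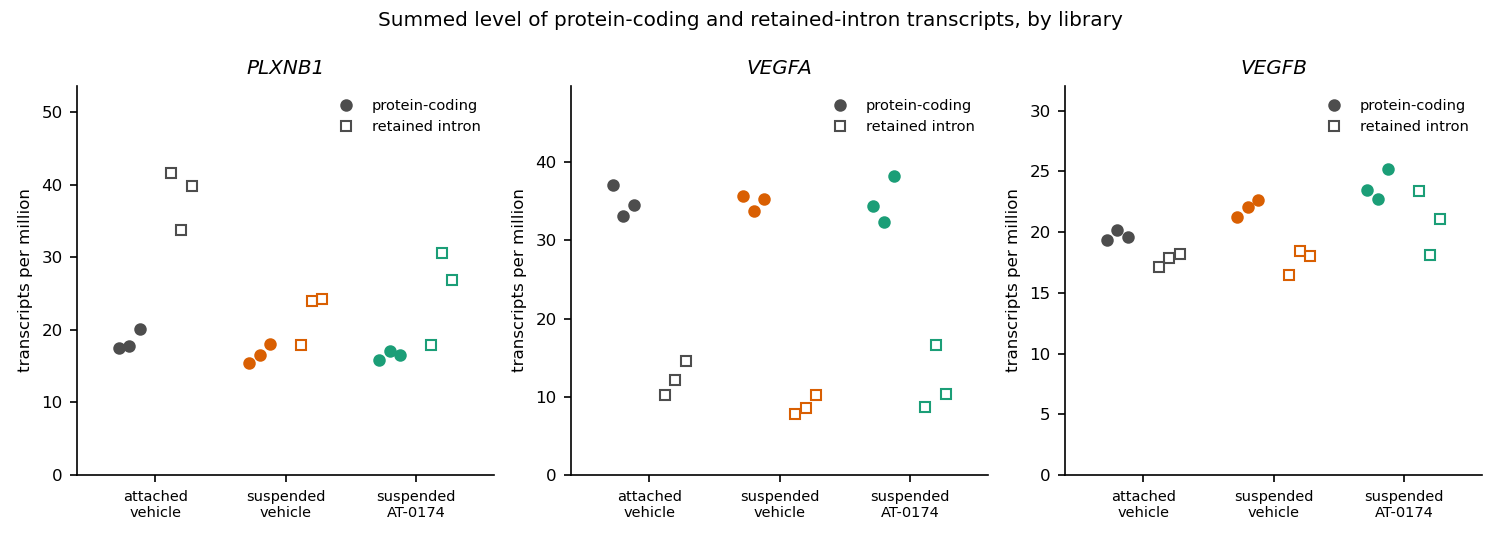
Summed TPM of protein-coding (filled circles) and retained-intron (open squares) transcripts of *PLXNB1*, *VEGFA* and *VEGFB* in each library, by group. Retained-intron *PLXNB1* was 33.8 to 41.6 TPM in attached cells and 17.9 to 24.3 TPM in suspended vehicle cells, whereas protein-coding *VEGFA* had group means of 34.9 to 35.0 TPM.

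*VEGFA* also had both classes of transcript. Its protein-coding transcripts had 55.5, 51.8 and 56.03 CPM attached, 55.3, 52.4 and 53.3 CPM in suspended vehicle cells and 53.1, 55.5 and 57.5 CPM with AT-0174, overlapping throughout. The retained-intron transcripts had 22.1 to 30.6 CPM attached and 16.6 to 20.9 CPM in suspended vehicle cells, without overlap, and 15.9 to 24.8 CPM with AT-0174, which overlapped with both. In TPM the retained-intron groups overlapped, at 12.3 ± 2.18, 8.89 ± 1.22 and 11.9 ± 4.18. On counts of protein-coding transcripts alone the log2 fold change of *VEGFA* in suspension was -0.05, beside -0.15 for the whole gene.

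VEGF-A proteins differ in whether they carry the segment that binds heparin, which the short, diffusible form lacks. The coding exon for that segment, at chr6:43781956-43782087, was present in 15 of the 20 coding transcripts and absent from VEGFA-206, which codes for 147 residues and had the largest mean share of *VEGFA* TPM over the 9 libraries. Transcripts with the exon made up 76.2%, 74.8% and 73.2% of coding *VEGFA* TPM in attached cells, 74.4%, 62.0% and 67.9% in suspended vehicle cells, and 69.2%, 74.6% and 69.4% with AT-0174. Most coding *VEGFA* RNA in each library therefore held the exon, and the groups overlapped. As a share of all *VEGFA* TPM, VEGFA-206 was 18.4% ± 0.57 attached, 25.4% ± 4.64 in suspended vehicle cells and 20.1% ± 4.26 with AT-0174. In attached cells it came after VEGFA-201, at 22.4% ± 2.11.

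In TPM, *VEGFB* was divided almost evenly between VEGFB-201, coding for 207 residues, at 18.8 ± 0.50 TPM in attached cells, and the retained-intron transcript VEGFB-204 at 17.7 ± 0.53 TPM. The 3 coding transcripts together had 19.4, 20.2 and 19.6 TPM attached, 21.3, 22.04 and 22.7 TPM in suspended vehicle cells and 23.5, 22.8 and 25.2 TPM with AT-0174. In TPM each group lay above the one before it without overlap, but in CPM the coding values of attached (22.8 to 23.9) and suspended vehicle cells (23.7 to 24.7) overlapped, and those with AT-0174 (26.2 to 28.5) lay above both. On counts of coding transcripts alone the log2 fold change of *VEGFB* with AT-0174 was 0.17, with an adjusted p of 0.234 by edgeR.

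The receptors that these ligands need were mostly not detected. *FLT1* and *KDR*, VEGF receptors 1 and 2, had at most 2 and 1 counts in any library. *FLT4*, VEGF receptor 3 and the receptor of VEGFC, had 23.7 ± 0.60 CPM attached, 20.5 ± 0.52 in suspended vehicle cells and 21.4 ± 0.44 with AT-0174. It fell in suspension by 0.21 on the log2 scale (SE 0.0444, adjusted p = 0.00648 by edgeR), and with AT-0174 the log2 fold change was 0.06 (SE 0.0442, adjusted p = 0.77 by edgeR).

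Among 61 other genes of the pathway, listed with earlier results known, 40 passed the filter, and 3 rose and 5 fell in suspension. That is 8 of 40, beside the 21.2% of all genes, with a median log2 fold change of -0.02 against 0.00. The count was 4 without suspended vehicle replicate 2, 5 without attached replicate 3 or without suspended vehicle replicate 1, and 5 on protein-coding transcripts alone.

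Of 6 other plexins, 5 were tested and 3 fell. Among all 15528 genes tested, 1677 were lower and 1620 higher past the same threshold. With so few genes per group, nothing is read from this count or from those of the other groups below. *PLXNB2* had the highest mean TPM of the plexins in attached cells, at 232. Its attached libraries (223 to 238 TPM) overlapped with those of *PLXNA3* (179 to 235). On the log2 scale *PLXNB2* fell by 0.11 (SE 0.0323, adjusted p = 0.0327 by edgeR). The falls were 0.35 for *PLXNA3* (SE 0.0919, adjusted p = 0.0178 by edgeR) and 0.28 for *PLXNB3* (SE 0.0632, adjusted p = 0.00889 by edgeR). *PLXNA3* had 320 to 416 CPM attached and 273 to 286 CPM in suspended vehicle cells. Per length it had 199.9 TPM attached and 144 TPM in suspended vehicle cells, above *PLXNA1* at 17.8 and 21.1 TPM. Of 5 other class 3 semaphorins, 2 were tested and 0 passed in either direction, with *SEMA3B* the most abundant at -0.39 (SE 0.164, adjusted p = 0.117 by edgeR, unadjusted p = 0.036). The ligands *SEMA3A* and *SEMA3D* were at 0 counts in all libraries, which leaves *SEMA3F* and *SEMA3C* as the most abundant class 3 ligands.

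Of 13 transmembrane and anchored semaphorins, 9 were tested and 1 fell, *SEMA6C*, a ligand of A-type plexins, by 0.61 (SE 0.144, adjusted p = 0.0108 by edgeR), while *SEMA4A*, the most abundant of them, had a log2 fold change of -0.03 (SE 0.0340). Of 8 proteases that process ligands, 6 were tested and 1 rose, *FURIN*, a convertase that cuts VEGFC and class 3 semaphorins. *ADAM10*, the most abundant of these and a sheddase of membrane proteins, had a log2 fold change of 0.04 (SE 0.0417). *FURIN* had 71.1 ± 1.52 CPM attached, 84.8 ± 1.57 in suspended vehicle cells and 74.2 ± 3.62 with AT-0174, and rose in suspension by 0.25 (SE 0.0398, adjusted p = 0.00136 by edgeR). Of 24 coreceptors and intracellular mediators, 17 were tested and 2 rose, *RND1*, a small GTPase that binds plexins, by 0.22 (SE 0.0672, adjusted p = 0.0381 by edgeR) and *CDK5*, a kinase downstream of semaphorins, by 0.13 (SE 0.0360, adjusted p = 0.0266 by edgeR). *RAC1*, the most abundant of this group, had a log2 fold change of 0.01.

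With AT-0174, 1 of the 40 genes passed, beside 0.779% of all genes, and it was again *FURIN*, which fell by 0.19 (SE 0.0394, adjusted p = 0.0445 by edgeR). The call was lost when any of 5 of the 6 libraries of the comparison was left out, that is, all but suspended AT-0174 replicate 3. *FURIN* shares the suspended vehicle libraries between both comparisons. The median log2 fold change of the 40 genes was -0.02, against 0.00 over all genes.

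**Figure D5:**
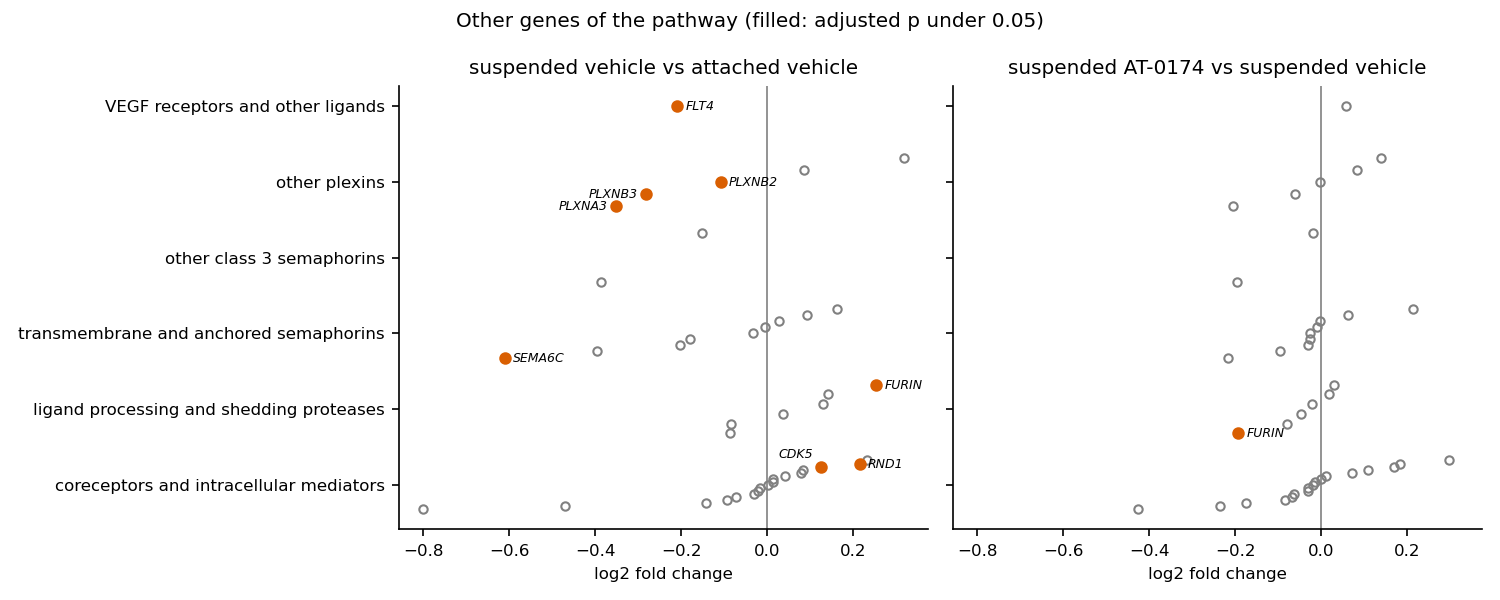
Log2 fold change of the 40 tested other genes of the pathway, 1 point per gene, by group of genes, with suspended against attached vehicle cells on the left and AT-0174 against vehicle on the right. Filled points have an adjusted p under 0.05 and are named, 8 on the left (5 lower, 3 higher) and *FURIN* alone on the right.

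The genes whose pattern over the 9 libraries was most like that of *NRP1* were sought among 12517 others whose mean reached 50 normalized counts, by the root mean square difference of log2 CPM, each centred on its attached mean. The nearest was *BASP1*, a membrane protein that binds actin regulators, at 0.247 log2 units. It went from 5.73 CPM attached to 0.634 CPM in suspended vehicle cells and 0.874 CPM with AT-0174. The others were *PAPLN* at 0.430, *CRIM1* at 0.661, *COL12A1* at 0.678 and *FRMD3* at 0.765 log2 units. *CRIM1*, a transmembrane protein that binds BMP ligands, was higher with AT-0174 than with vehicle, like *NRP1* and *BASP1*, at 0.948 against 0.736 CPM. *PAPLN*, *COL12A1* and *FRMD3*, the first 2 of them matrix genes, were lower with AT-0174 than with vehicle, at 0.821 against 1.17, 2.71 against 3.83 and 0.769 against 1.30 CPM. These CPM values are group means given without a spread or a test, so no shared response to AT-0174 is read from them.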

How the data were processed

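Bulk RNA-seq of 9 MDA-MB-453 libraries was analysed. The estimated counts per gene were deposited by the authors, who trimmed reads with Cutadapt 3.4 in Trim Galore 0.6.7, aligned them with STAR 2.7.9a to GRCh38 and quantified them with Salmon 1.10.1. The TPM values and estimated reads per transcript were also deposited by the authors and are normalized for transcript length. The labels and the methods name different library kits, and use of strand is not given in the sources used here.

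Counts were rounded and tested with edgeR 4.0.16 (R 4.3.3; TMM scaling, filterByExpr, quasi-likelihood test over all 9 libraries, Benjamini-Hochberg over 15528 genes, adjusted p under 0.05), after a check on simulated data. CPM are scaled by TMM. The p-values set the difference between groups against the spread between the 3 libraries of a group, estimated over all 9 libraries. Exact permutation tests of leading transcript shares cannot go below p = 0.1 with 3 against 3 libraries, and these shares are given as values. Reads of transcript classes were scaled like the genes' CPM, a step chosen after the data were seen. Transcript types and positions came from GENCODE 44 on the same build, and upstream sequences from RefSeq. Members and lists were chosen with earlier results of these data known. Named genes are the 10 members, listed pathway genes past the threshold with at least 50 normalized counts (at most 3 per list), the most abundant of each list, and the 5 genes most like *NRP1*. Replicate numbers did not pair the libraries (same-number correlations -0.022 to 0.044). Alternatives were DESeq2 1.42.0 with its size factors, limma-voom 3.58.1, other filters, 6 libraries only, the replicate number as a block, leaving out single libraries, counts recomputed from TPM, and a stricter threshold. Counts of protein-coding transcripts were added after the data were seen.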

Additional observations from a re-analysis of the deposited data

How the results depend on the processing

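Each list count and log2 fold change was recomputed under the alternatives. In suspended against attached vehicle cells 2 of the listed genes were past the threshold under all alternatives but 1, and 3 with no filter on low counts. Over 15 alternatives the log2 fold change ranged from -3.275 to -2.80 for *NRP1*, -0.70 to -0.30 for *PLXNB1* and -0.21 to -0.05 for *VEGFA*, and lay between -0.083 and 0.183 for the other 6. All tested genes past the threshold numbered 1396 on counts rebuilt from TPM, 2052 on protein-coding transcripts, 1405 at an adjusted p under 0.01, and 1935 to 2693 with a library left out, against 3297. Other pathway genes numbered 4, 5, 3 and 4 to 7 in the same order, against 8.

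With AT-0174, 0 listed genes passed under all alternatives except no filter, with 1. All tested genes numbered 239 by DESeq2, 499 with no filter, 31 on counts rebuilt from TPM, 52 at 0.01 and 63 to 86 with a library left out, against 121. Other pathway genes numbered 2 by DESeq2, 4 with no filter, 0 with 6 libraries, counts rebuilt from TPM, protein-coding transcripts or 0.01, and 0 to 1 with a library left out, against 1. The log2 fold change of *PLXNA2* turned from -0.02 to 0.25 on counts rebuilt from TPM and was -0.05 to 0.014 with a library left out, and that of *PLXNB1* was -0.024 to 0.115. For *NRP1* it ranged from 0.34 to 1.46 over 15 alternatives (adjusted p 0.0961 to 0.524), for *VEGFB* from 0.15 to 0.22 (0.0217 to 0.341) and for *VEGFC* from 0.19 to 0.27 (0.161 to 0.634).

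Leading transcript shares turned sign in places when a library was left out. In suspended against attached vehicle cells the differences ranged from -5.9 to 1.39 percentage points for *PLXNA1*, -3.37 to 0.06 for *SEMA3C* and -0.92 to 1.9 for *SEMA3F*, and the last was -1.54 from estimated reads. With AT-0174 they ranged from -14.37 to 14.77 for *NRP1*, -1.75 to 0.0 for *VEGFC*, -1.37 to 7.85 for *PLXNA1*, -2.54 to 0.9 for *SEMA3C* and -0.41 to 3.33 for *SEMA3F*. The causes were not tested.

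Same-numbered libraries deviated together by no more than a correlation of 0.044. With the replicate block 3250 genes passed in suspension and 2 listed genes did, and with AT-0174 the block gave 146 genes and 0 listed genes, so it changed no call of a listed gene. *NRP2* and the transcript split of *NRP1* are limited by depth.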
